A study of Solanum virginianum with 36 samples.

Results

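The comparison described here sets a thrips-resistant eggplant line against a thrips-susceptible one at 4 h of feeding by thrips, the insects that the study names as western flower thrips. It rests on 6 of the 36 leaf libraries of the study, 3 from resistant and 3 from susceptible plants, chosen by their labelled line and time and by no measured value. The 2 groups were resistant leaves at 4 h of feeding and susceptible leaves at 4 h of feeding. The other 30 libraries came from the same lines at 0, 8, 12, 24 and 48 h. The labels give no name or pedigree of either line, no age beyond sampling 1 week after transplanting, and no number of plants per library. They call the 3 libraries of a group biological replicates. The organism field reads Solanum virginianum, while the series text speaks of eggplant. All plants grew in a greenhouse with 16 h of light, and total RNA was taken from leaf.

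Western flower thrips pierce leaf cells and suck out their contents. Plants generally answer such damage within hours through jasmonate, a hormone that switches on proteinase inhibitors, polyphenol oxidases and other defence proteins. Eggplant leaves are also known for phenolics built from quinic acid, a side product of the shikimate pathway that is joined to caffeic acid to make chlorogenic acid, and quinic acid stands in the title of the study. A sample taken at 4 h therefore falls in the early phase of such a response. The files pair no gene ID with a name or a description, so no measured ID can be assigned to any of these pathways, and IDs are given as deposited.

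Of 85443 IDs in the table, 29217 had a count in at least 1 of the 6 libraries and 23719 were tested, called genes below. Estimated counts over rows with an ID came to 31449512 to 35170641 per resistant library and 36722082 to 41285899 per susceptible library. A count was found for 22639 to 22875 IDs in each resistant library and for 24387 to 24587 in each susceptible one, and the part of this difference in the results was not tested. Levels are in CPM, the share of a library's estimated counts scaled by its TMM factor, and serve to compare libraries for the same gene. In such bulk samples fewer cells of a type and less RNA per cell cannot be told apart.

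The libraries separated by line at 4 h. The first principal component of log2(CPM + 1), over the 18138 genes whose mean was 1 CPM or more, held 72.0% of the variance of the 6 libraries. The resistant libraries lay at -62.5, -79.6 and -88.3 on it (replicates 1, 2 and 3), against 75.7, 77.0 and 77.7 for the susceptible ones. The second component held 12.7% and ran mainly through the resistant line, with replicate 1 at 54.8, replicate 2 near 0 and replicate 3 at -49.3. Resistant replicates 1 and 3 thus lay at opposite ends of this component. Of the 6 libraries, only resistant replicate 1 was closer to another time than to its own group. Its correlation with the mean of the other 2 resistant libraries at 4 h was 0.953 across these genes. With the mean of the 3 resistant libraries at 8 h it was 0.970. For resistant replicates 2 and 3 the values with the rest of their own group were 0.980 and 0.955, above those with any other time (at most 0.966 and 0.944). The susceptible libraries had 0.965 to 0.975 with their own group and at most 0.957 with another time. Results that rest on resistant replicate 1 are therefore given with and without it.

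The lines differed at 4 h for 9817 of 23719 genes, 41.4% of those tested, by edgeR's quasi-likelihood test at an adjusted p under 0.05. The resistant line was higher for 4523 genes (19.1% of those tested) and lower for 5294 (22.3%). Without resistant replicate 1 the counts were 4341 higher and 5551 lower. The 3 resistant libraries lay all above or all below the 3 susceptible ones for 11980 genes (50.5%), with 5425 (22.9%) above and 6555 (27.6%) below. The split by direction was not the same in every analysis. Limma on log2(FPKM + 1) as deposited called 3362 genes higher and 2680 lower, or 55.6% higher against 46.1% in the count test, and the share was 53.6% with FPKM scaled by TMM and 51.9% with no filter. These analyses differ from the count test in the test, the IDs and the normalization at once, and their parts in the split were not told apart. In the count test 48.5% of the called genes among the 13723 IDs of that FPKM set were higher, against 42.6% among the other tested IDs.

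**Figure D1:**
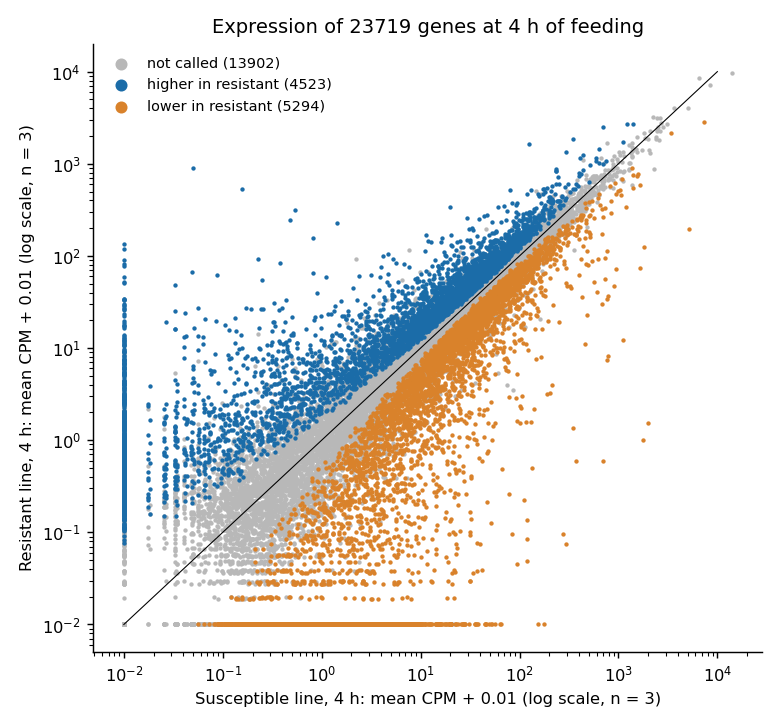
Mean CPM at 4 h of each of 23719 genes in the resistant line (vertical axis) and the susceptible line (horizontal axis), both plus 0.01 on log scales, with 3 libraries per line. Blue points are the 4523 genes called higher and orange points the 5294 called lower in the resistant line, and the points along the lowest level of either axis are genes without a count in that line.

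The called differences covered a wide range of sizes, from under 1.5-fold to at least 16-fold. Of the 9817 genes, 2317 had at most 3 counts over the 3 libraries of 1 line (742 higher and 1575 lower in the resistant line), so that their fold change has no firm value. Among the others the median difference was 1.98-fold for the 3781 higher genes and 2.49-fold for the 3719 lower genes. A difference under 1.5-fold was found for 1323 of them (17.6%), and 2006 (26.7%) lay between 1.5- and 2-fold. Between 2- and 4-fold lay 2117 (28.2%), between 4- and 16-fold 1462 (19.5%), and 592 (7.89%) differed by at least 16-fold, 228 higher and 364 lower in the resistant line.

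A stricter test asked which genes differed by more than 2-fold (glmTreat of edgeR, adjusted p under 0.05). It called 4059 genes, 17.1% of those tested, with 1459 (6.15%) higher and 2600 (11.0%) lower in the resistant line. Without resistant replicate 1 it called 4033. At the other end, the 95% interval of the difference lay within 2-fold either way for 8141 genes (34.3%), of which 1632 were called different and 6509 were not. For the remaining 7393 genes that were not called, the interval reached past 2-fold, so the libraries at 4 h do not tell whether they differ by that much.

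The direction of the difference went with the expression level. Among genes with a mean of 20 to 100 CPM over all libraries, the resistant line was higher for 1552 and lower for 1189, and at 100 CPM or more the counts were 391 and 305. Below 20 CPM the lower genes prevailed, with 1025 higher and 1252 lower at 5 to 20 CPM, 686 and 1144 at 1 to 5 CPM, and 869 and 1404 under 1 CPM. The share of genes called ranged from 35.0% at 100 CPM or more to 44.8% at 1 to 5 CPM. Differences beyond 2-fold were found for 4.68% of genes at 100 CPM or more and for 29.8% of genes under 1 CPM. The median standard error of the log2 difference was 0.21 and 1.20 in these 2 classes.

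**Figure D2:**
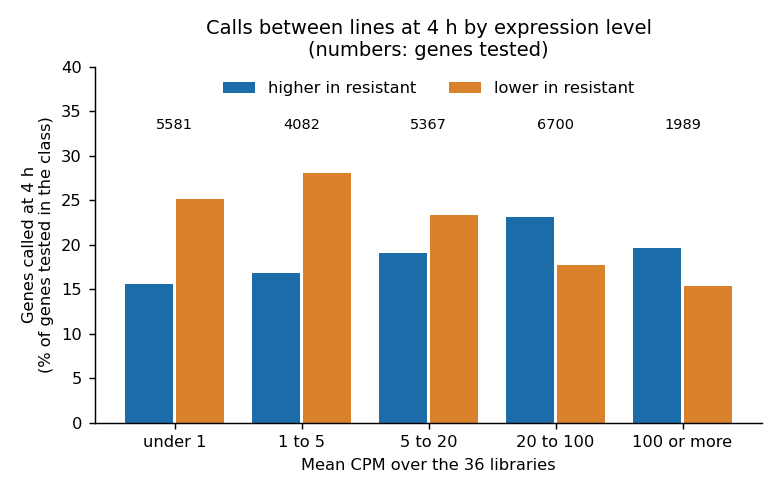
Share of the genes tested in each class of mean CPM that were called higher (blue) or lower (orange) in the resistant line at 4 h, in percent, with the number tested above. The lower genes outnumber the higher ones in the 3 classes under 20 CPM, and the higher ones outnumber the lower in the 2 classes above.

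The 4523 higher genes held 21.1, 25.3 and 28.9% of the estimated counts of resistant replicates 1, 2 and 3, against 12.3 to 12.9% in the susceptible libraries. The 5294 lower genes held 8.64 to 11.3% in the resistant libraries and 22.2 to 24.0% in the susceptible ones. Resistant replicate 1 had the smallest share of the first and the largest of the second among the resistant libraries. The genes not called held 62.4 to 67.7% of each library. The values that made the calls also fix these shares, so they are a description.

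The most abundant leaf transcripts were largely shared between the lines. By FPKM, which is per length and so allows levels to be compared between genes, 77 of the 100 most abundant IDs of the resistant line at 4 h were also among the 100 of the susceptible line. In the resistant list, with 435 to 5239 FPKM, 21 IDs were called higher and 8 lower in the resistant line, beside 19.1% higher and 22.3% lower over all genes tested. In the susceptible list, with 388 to 6311 FPKM, 6 were called higher and 25 lower in resistant leaves. The 21 higher of the first list and the 25 lower of the second are thus near the shares over all genes. The 8 lower of the first and the 6 higher of the second are below those shares. Genes of high level had other shares than all genes. Of 1989 genes tested at a mean of 100 CPM or more over all libraries, 391 were called higher and 305 lower. These counts cover the part of the IDs for which an FPKM is at hand, and each list was picked by its level in 1 of the lines compared.

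IDs were named among called genes that averaged 1 CPM or more in the lower line and 5 CPM or more in the higher one. Their resistant and susceptible libraries at 4 h also had to lie apart, so the lack of overlap given below was fixed by the choice. The largest fold changes in favour of the resistant line were those of Sme2.5_11213.1_g00002 and Sme2.5_02419.1_g00008. Sme2.5_11213.1_g00002 had 194, 255 and 232 CPM in the resistant libraries, against 1.23, 1.37 and 1.66 CPM in the susceptible ones. All resistant values were far above all susceptible ones, with a log2 fold change of 7.32 ± 0.46 (SE; edgeR adjusted p = 3.4e-12). In FPKM it averaged 57.2 ± 8.36 in the resistant and 0.332 ± 0.0586 in the susceptible line (SD, n = 3 each). This placed it at rank 1244 of 62643 IDs in the resistant line and at rank 14110 in the susceptible line. Of these IDs only 18307 were above 0 FPKM in the resistant line at 4 h, and 19868 in the susceptible line. The difference was of the same order at the 5 other times, with log2 fold changes of 6.54 to 8.17.

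Sme2.5_02419.1_g00008 had 44.6, 65.3 and 65.0 CPM in the resistant libraries, against 1.69, 1.60 and 0 CPM in the susceptible ones. The groups did not overlap, and susceptible replicate 3 had no count. Its log2 fold change was 5.72 ± 1.15 (SE; edgeR adjusted p = 2.6e-04). At the other times the resistant means were 45.7 to 62.4 CPM and the susceptible means 0.335 to 1.90 CPM.

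By the same rule, in the other direction stood Sme2.5_17606.1_g00001 and Sme2.5_16026.1_g00001. Sme2.5_17606.1_g00001 had 1.72, 1.79 and 1.10 CPM in the resistant libraries, against 2135, 1986 and 1886 CPM in the susceptible ones, a log2 fold change of -10.34 ± 1.88 (SE; edgeR adjusted p = 7.5e-05). In FPKM it averaged 1.73 ± 0.365 in resistant leaves, at rank 11020, and 2218 ± 145 in susceptible leaves, at rank 8 (SD, n = 3 each). Its resistant level was not steady over the study: each of the groups at 0, 8, 12, 24 and 48 h held at least 1 library without a count, and the 24 and 48 h groups reached 14.6 and 21.5 CPM.

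Sme2.5_16026.1_g00001 had 2.17, 1.59 and 0.253 CPM in the resistant libraries, against 327, 262 and 443 CPM in the susceptible ones. No resistant library came near the susceptible range, and the log2 fold change was -8.00 ± 0.77 (SE; edgeR adjusted p = 6.3e-09). This ID moved with time in both lines. Its resistant means at 0, 4, 8, 12, 24 and 48 h were 0.0381, 1.34, 0.831, 0.626, 0.0328 and 0.210 CPM, and its susceptible means at the same times were 72.0, 344, 262, 281, 54.0 and 7.51 CPM. At 4 h against 0 h it was higher in the resistant line, where the 0 h libraries held 4, 0 and 0 counts (log2 fold change 5.03 ± 1.03, edgeR adjusted p = 1.7e-03) and in the susceptible line (2.26 ± 0.58, adjusted p = 1.5e-02). The highest mean of both lines was the one at 4 h. The line difference at 4 h was not shown to differ from that at 0 h (2.78 ± 1.29, edgeR adjusted p = 0.37).

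**Figure D3:**
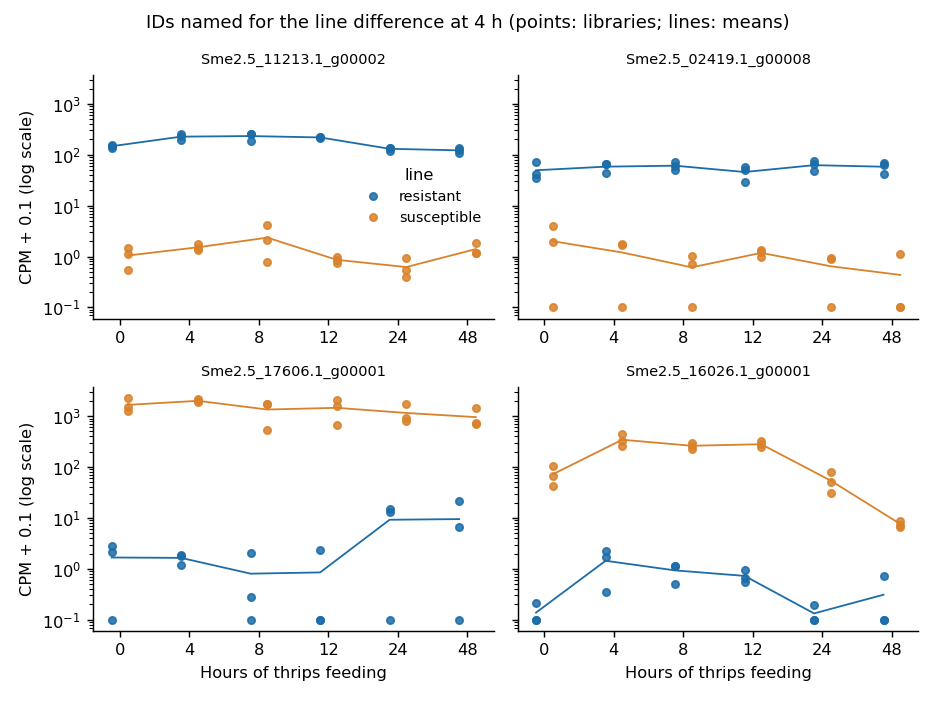
CPM plus 0.1 (log scale) at each time of feeding for the 2 IDs higher (upper row) and the 2 lower (lower row) in the resistant line at 4 h with the largest fold changes at 1 CPM or more in the lower line. Points are libraries, 3 per line and time, and lines join the means. The 4 IDs were chosen for no overlap between the lines at 4 h, so the separation of the points there was fixed by that choice.

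A further class of IDs was nearly without counts in 1 line at 4 h. A total of 691 IDs averaged 1 CPM or more among susceptible leaves but held 3 counts at most in the resistant group, and 600 of the 691 had no resistant count. Their median level in the susceptible line was 2.75 CPM, 226 reached 5 CPM, 47 reached 20 CPM and 2 reached 100 CPM. The reverse, nearly without counts in the susceptible line, was true of 277 IDs, of which 237 had no susceptible count. Their median level in the resistant line was 2.54 CPM, and 86 reached 5 CPM. A level of 1 CPM stands for 108 counts over the 3 resistant libraries and for 127 over the 3 susceptible ones. Without resistant replicate 1 the lists held 802 and 281 IDs.

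Most of these IDs were also nearly without counts in the same line before feeding. Of the 691, 601 met the same limit of 3 counts in the resistant 0 h group. The 8 h group had 595 of them, the 12 h group 609, the 24 h group 607 and the 48 h group 438. Over the other 15 resistant libraries together 339 had at most 3 counts. Without resistant replicate 3 at 48 h, left out after seeing the data, this number was 500. A group mean of at least 1 CPM at another time was reached in the resistant line by 31 of them. Of the 277, 154 had at most 3 counts over the other 15 susceptible libraries, and 27 reached a group mean of 1 CPM at another time.

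The position of these IDs was read from the IDs themselves, in which a scaffold number is followed by a running gene number. Among all IDs that reached 1 CPM in susceptible leaves at 4 h, 3.89% were on the list of 691. The neighbours of a listed ID were the IDs at the previous and the next number on the same scaffold that reached that level too. Of 309 such neighbour places, 56 (18.1%) held an ID of that list. Each pair of adjacent listed IDs counts from both sides. For the list of 277, counted in the same way, the shares were 1.62% over all such IDs and 4 of 112 neighbour places (3.57%). The longest stretch of consecutive listed IDs held 3 in the first list and 2 in the second. Neighbours can be copies or pieces of the same gene, and their reads can then be shared, so these shares describe the ID numbering and were not tested.

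The same view of all called genes showed a weaker pattern. Over 12000 pairs of tested IDs with consecutive numbers, the neighbour of a gene called higher was itself called higher in 21.9% of places and lower in 17.3%. Beside a gene called lower, 27.2% of neighbours were lower and 15.5% higher. Beside a gene not called, 17.9% were higher and 18.8% lower. Only 1 stretch of 5 consecutive IDs was called higher and 1 called lower, and no stretch was longer. The higher one, on scaffold Sme2.5_04106.1, had log2 fold changes of 0.50 to 3.58, the highest for an ID with a mean of only 0.0236 CPM in the susceptible line. The lower one, on scaffold Sme2.5_02228.1, had -5.86 to -0.61, where the most negative value belongs to an ID without a resistant count at 4 h and is no measure of size. On that scaffold 8 of 11 tested IDs were called lower and 0 higher at 4 h. Both scaffolds were chosen after their values were seen.

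The line difference at 4 h was then set beside that at the other times, which share no library with it. Of the 9817 genes, 6179 (62.9%) were called in the same direction at 0 h, where 34.6% of all genes tested were called, and 28 were called in the opposite direction. Of the later times, 8 h shared 6617 calls, 12 h 7029, 24 h 6323 and 48 h 6669, with 53 to 103 in the opposite direction. The share of all genes called at those times was 42.8, 44.7, 39.2 and 42.3%. Taken by sign alone, 94.0% of the genes called at 4 h had the same sign at 0 h, against 66.6% of those not called at 4 h. For the genes beyond 2-fold at 4 h the same-sign share was 96.8 to 98.5% over the 5 times. The spread per gene was estimated over all 36 libraries, so a gene of low spread passes more easily at each time.

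The genes called at 4 h were chosen by their values at 4 h, and their differences were larger there than elsewhere. Their median log2 difference was 0.98 for those higher and -1.32 for those lower at 4 h, leaving out genes with at most 3 counts in 1 line. At the other times the same genes had medians of 0.64 to 0.80 and of -1.05 to -0.93. All 5 other times repeated the call for 4050 genes (41.3%), 1571 higher and 2479 lower, and none of them did for 868 genes (8.84%), 462 higher and 406 lower. Being called at 4 h and not elsewhere does not show that the difference is particular to 4 h, and 73 of the 868 passed the test of that given below.

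Whether the line difference at 4 h differed from that before feeding was tested directly. It did for 64 of 23719 genes (0.270%; edgeR, adjusted p under 0.05), with 30 (0.126%) shifted towards the resistant line and 34 (0.143%) towards the susceptible line. An unadjusted p under 0.05 was found for 2955 genes (12.5%). A gene that did not pass was not shown to have the same line difference at both times. The study holds no group kept without thrips until 4 h. Feeding and time of day can therefore not be told apart in this or any other comparison between times. Without resistant replicate 1 at 4 h 555 genes passed. With another library left out the number also moved by more than 1.5 times in 7 cases: it was 23 without resistant replicate 2 or 3 at 4 h, 26 without resistant replicate 1 at 0 h, 31 and 25 without susceptible replicates 2 and 3 at 4 h, and 32 and 39 without susceptible replicates 2 and 3 at 0 h. Only 6 genes passed when the fit used the 12 libraries of these groups alone, and DESeq2 called 532. The size of this class is therefore poorly fixed. The calls between lines at 4 h stayed between 8002 and 9892 when any 1 of the 6 libraries was left out. A fit of these 6 libraries alone called 7353 of 20735 genes tested (35.5%), and 5928 with a replicate block.

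Among the 64 genes the movement from 0 h to 4 h lay more often in the resistant line for the genes shifted towards the susceptible line. Of those 34, 28 fell in the resistant line and 9 rose in the susceptible line, each by edgeR's test of that line; 24 passed in the resistant line alone, 6 in the susceptible line alone and 4 in both. The background for these counts is 13.3% of all genes called between 4 and 0 h in the resistant line and 7.62% in the susceptible line. Of the 30 shifted towards the resistant line, 15 rose in the resistant line and 17 fell in the susceptible line. The test itself used these libraries, so the counts are a description. At 4 h 22 of the 30 were called between lines (19 higher, 3 lower in the resistant line), and so were 22 of the 34 (1 higher, 21 lower).

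The 4 later times give values that this test did not use. The 34 genes had a median line difference (log2) of 0.75 at 0 h and -1.09 at 4 h. At 8, 12, 24 and 48 h it was -0.75, -0.32, 0.48 and 0.49. At 8 h, where 42.8% of all genes were called, 17 of them were called lower and 3 higher in the resistant line. At 48 h, where 42.3% of all genes were called, 5 were lower and 15 higher. For the 30 genes the medians were -0.60 at 0 h and 1.10 at 4 h, followed by -0.03, 0.26, -0.24 and -0.28. At 24 and 48 h the medians of both sets thus had the sign they had at 0 h.

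**Figure D4:**
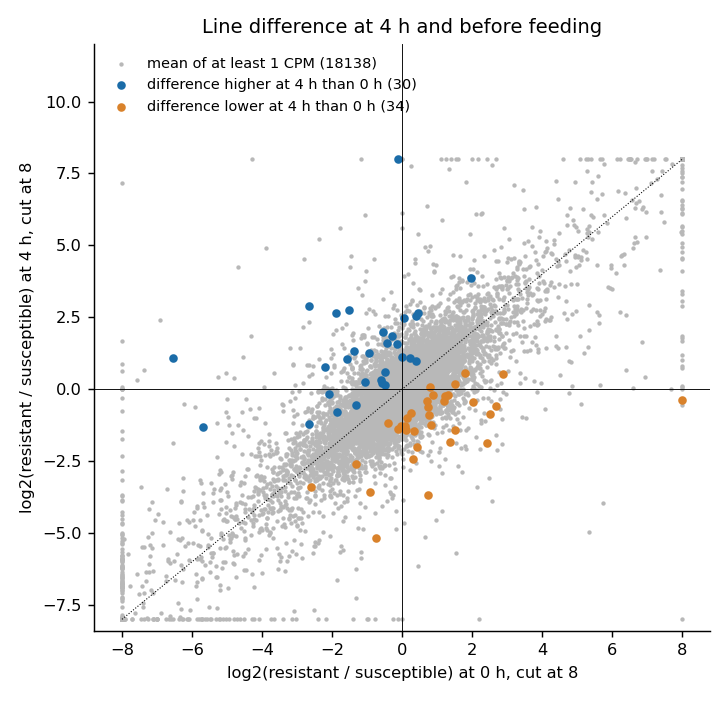
Fitted log2 ratio of the resistant to the susceptible line at 4 h (vertical axis) against that at 0 h (horizontal axis), cut at 8 either way, for the 18138 genes whose mean was 1 CPM or more (grey). The 30 genes whose difference was higher (blue) and the 34 whose difference was lower (orange) at 4 h than at 0 h lie above and below the dotted line of equal differences.

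Of the genes shifted towards the resistant line, Sme2.5_25219.1_g00001 had 2.94, 6.47 and 10.8 CPM in the resistant libraries at 4 h and no count in any of the 3 susceptible ones. Against a floor of 3 counts over the susceptible group (0.0236 CPM) it was at least 280-fold higher in the resistant line, a bound that covers counting error only. At 0 h the lines overlapped, with 17.0 ± 11.6 CPM in resistant leaves and 18.3 ± 6.65 CPM in susceptible leaves (SD, n = 3 each). The susceptible mean was 37.3 CPM at 8 h, so absence from the susceptible line was seen at 4 h and at no other time. The lowest resistant library over the whole study had 1.72 CPM. At 8 h this ID was called lower in the resistant line, with a mean of 3.83 CPM there (log2 fold change -3.28 ± 0.72, edgeR adjusted p = 7.0e-04). The edgeR adjusted p of the line difference at 4 h against 0 h was 2.8e-03, and 6 of 24 alternatives ended the call (highest adjusted p 0.16).

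Sme2.5_01843.1_g00010 was higher in the resistant line at 4 h, with 13.3, 18.7 and 18.6 CPM there and 8.16, 6.18 and 5.88 CPM in the susceptible line. At 0 h the order was the reverse, with 14.3 ± 4.02 CPM in resistant leaves and 37.1 ± 2.52 CPM in susceptible leaves (SD, n = 3 each). The groups did not overlap at either time. The susceptible line fell between the times (log2 fold change -2.46 ± 0.34, edgeR adjusted p = 3.1e-05), and the resistant line had 0.24 ± 0.32 (adjusted p = 0.75). The difference between the times was 2.70 ± 0.46 (edgeR adjusted p = 8.8e-03), and 2 of 24 alternatives, both with a replicate block, ended the call.

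Of those shifted towards the susceptible line, Sme2.5_02228.1_g00009 had 3.90, 2.95 and 2.08 CPM in the resistant libraries at 4 h, against 86.3, 80.2 and 155 CPM in the susceptible ones. The groups were far apart, with a log2 fold change of -5.17 ± 0.59 (SE; edgeR adjusted p = 1.0e-07). At 0 h the resistant line had 165 ± 55.1 CPM and the susceptible line 275 ± 91.1 CPM (SD, n = 3 each), and the lines were not called different (adjusted p = 0.26). The resistant line fell by 5.79 ± 0.61 on the log2 scale between the times. Its resistant means at 8, 12, 24 and 48 h were 7.70, 80.1, 89.1 and 58.3 CPM, beside 102, 173, 166 and 119 CPM in the susceptible line. At 8 h this ID was called lower in the resistant line too (log2 fold change -3.73 ± 0.55, edgeR adjusted p = 4.1e-06), and at 12, 24 and 48 h it was not called. The line difference at 4 h against 0 h was -4.43 ± 0.73 (edgeR adjusted p = 8.4e-03), and 2 of 20 alternatives, both with a replicate block, ended the call. This ID is the first of the 5 consecutive IDs on scaffold Sme2.5_02228.1 named above; none of the other 4 passed this test (adjusted p of 0.36 to 1.0).

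Sme2.5_02000.1_g00019 had 10.4, 4.19 and 2.65 CPM in the resistant libraries at 4 h, against 27.1, 57.2 and 135 CPM in the susceptible ones. The groups did not overlap, and susceptible replicate 3 stood far above susceptible replicate 1. At 0 h the resistant line had 136 ± 27.2 CPM and the susceptible line 81.9 ± 25.5 CPM (SD, n = 3 each). The difference between the times was -4.40 ± 0.94 (edgeR adjusted p = 3.8e-02). Of 24 alternatives 13 ended that call (adjusted p of up to 0.19), 9 of them by leaving out 1 library. The value stayed between -5.16 and -3.61 under all 24.

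To see what set 4 h apart from the study as a whole, its line difference was also tested against the mean of the line differences at the 5 other times. This passed for 242 genes (1.02%; edgeR), 106 (0.447%) shifted towards the resistant line and 136 (0.573%) towards the susceptible line, and 41 of the 64 genes above were among them. Limma on FPKM as deposited gave another split, with 212 towards the resistant and 178 towards the susceptible line, and on FPKM scaled by TMM 141 and 200. The count was 893 without resistant replicate 1, 77 and 74 without resistant replicates 2 and 3, and 139, 78 and 104 without susceptible replicates 1, 2 and 3. At 4 h 82 of the 106 were called higher in the resistant line and 93 of the 136 lower. The sign of the fitted difference at 4 h was opposite to that of the mean of the other times for 45 of the 106 and for 70 of the 136.

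Sme2.5_25219.1_g00001 also led this list in the resistant direction (edgeR adjusted p = 2.0e-04), and none of 17 alternatives ended that call. In the susceptible direction Sme2.5_00519.1_g00018 had 0.239, 0.202 and 0.113 CPM in the resistant libraries at 4 h, against 5.29, 26.2 and 11.6 CPM in the susceptible ones. Its 3 resistant libraries held 9, 7 and 4 counts. Its resistant means at 0, 4, 8, 12, 24 and 48 h were 13.5, 0.184, 0.170, 2.40, 30.8 and 5.02 CPM, and its susceptible means 34.0, 14.4, 2.22, 2.26, 16.4 and 12.1 CPM. The resistant line thus had its lowest means at 4 and 8 h and the susceptible line at 8 and 12 h. At 8 h this ID was called lower in the resistant line too (log2 fold change -3.67 ± 0.87, edgeR adjusted p = 1.2e-03), and at 0, 12, 24 and 48 h it was not called. The difference from the mean of the other times was -5.20 ± 0.94 (edgeR adjusted p = 6.1e-03), and 1 of 17 alternatives ended the call. Sme2.5_02000.1_g00019 was the next in this direction (-3.90 ± 0.76, edgeR adjusted p = 1.0e-02), with 4 of 17 alternatives that ended the call, 3 of them by leaving out 1 library. It was also called lower in the resistant line at 8 h, with 19.8 ± 4.37 CPM in resistant leaves and 72.1 ± 13.1 CPM in susceptible leaves (SD, n = 3 each; log2 fold change -1.86 ± 0.65, edgeR adjusted p = 2.3e-02), and was not called at 0, 12, 24 or 48 h.

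The second ID in the resistant direction, Sme2.5_04405.1_g00002, rests on 1 library. It had 0, 1.85 and 0 CPM in the resistant libraries at 4 h and no count in any other resistant library of the study, beside 10.2, 6.87 and 6.90 CPM in the susceptible libraries at 4 h. The 64 counts of resistant replicate 2 alone gave the call (edgeR adjusted p = 3.3e-02). Without that library the fitted value was -0.54 with an adjusted p of 1.0.

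**Figure D5:**
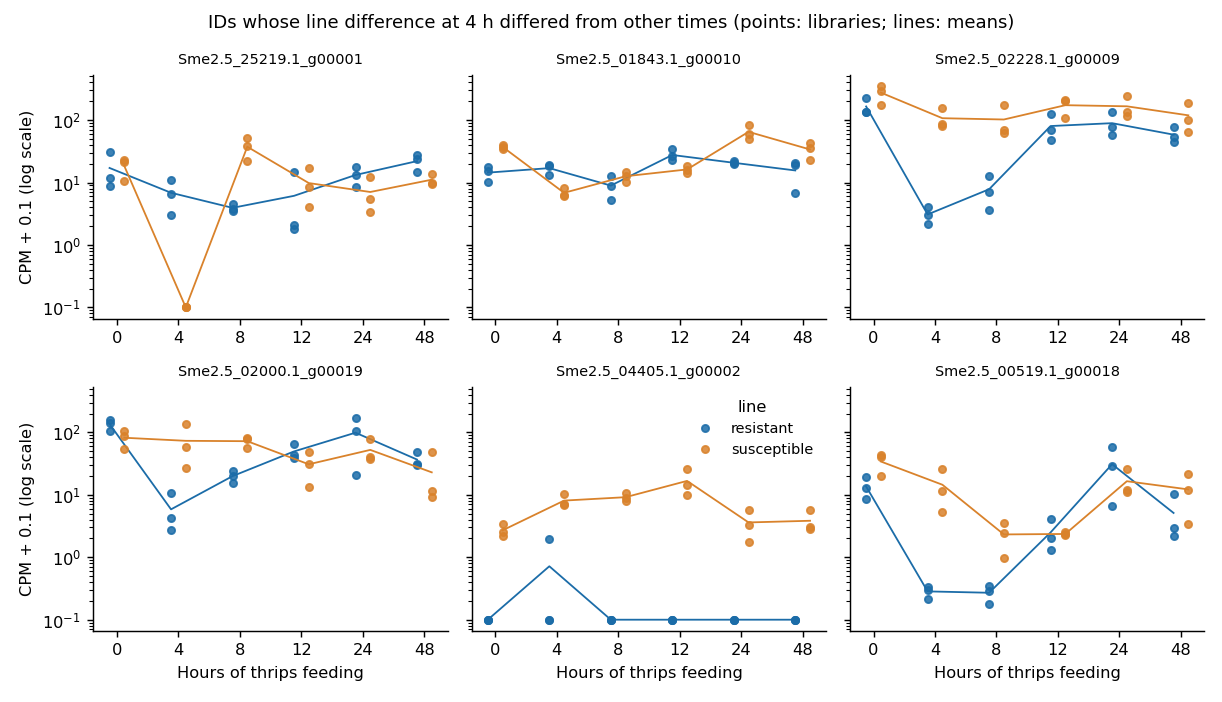
CPM plus 0.1 (log scale) at each time of feeding for the 6 IDs named for a line difference at 4 h that differed from that at 0 h or from the mean of the other times. Points are libraries, 3 per line and time, and lines join the means; Sme2.5_25219.1_g00001 drops to no count in the susceptible line at 4 h, and Sme2.5_02228.1_g00009 and Sme2.5_02000.1_g00019 have their lowest resistant mean at 4 h.

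Within each 4 h group some tested genes were present in 1 library and nearly missing from another. A library with 3 counts or fewer stood beside a sister library with 5 CPM or more for 108 genes in the resistant and 124 in the susceptible group. The high values were spread over the libraries, with 47 to 54 genes in each resistant and 46 to 59 in each susceptible library. With the 202 genes of this kind left out of the fit, an alternative added after seeing the data, 9821 genes differed between the lines.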

How the data were processed

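Per the labels, leaf RNA was made into libraries with a SMARTER mRNA-Seq kit, whose strandedness they do not state. The submitters' processing notes name FastQC and HTSeq 0.6.1, and the aligner and genome build are not given in the sources used here. The authors deposited whole numbers per gene ID, not normalized, treated here as estimated counts because the step that made them is not stated, and FPKM (per length and library). The deposited FPKM table used here covers 65535 of 89388 rows of the count table. The 3945 rows without an ID, 5.21 to 5.24% of the estimated counts of resistant and 5.91 to 6.19% of susceptible libraries at 4 h, were left out of library sizes and tests.

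All 36 libraries were fitted together in edgeR 4.0.16 (R 4.3.3) with 1 mean for each of 12 groups, TMM factors, the default filter on low counts and quasi-likelihood tests. P-values were adjusted over 23719 IDs by Benjamini-Hochberg at 0.05, and standard errors come from the F statistics. The labels do not say whether replicates were separate plants, so p-values measure the spread between these libraries. The chi-square of counts between replicates at 4 h was at least 49.5 per degree of freedom for each pair, so no pair was counted as 1 sample. DESeq2 1.42.0, limma 3.58.1 on log2(FPKM + 1) after a filter at a mean of 0.5 FPKM, other filters and scalings, a replicate block and leaving out libraries were alternatives. Scripts were tested on simulated data without other differences between groups. Of 23719 genes there, only 100 were changed 2-fold and 100 4-fold in the resistant line at 4 h, all at 1 CPM or more. The test between lines recovered 15% and 73% of them, and the test against 0 h 3% and 50%. For the test against the other times the shares were 8% and 70%. With so few changed genes the adjusted threshold between lines is stricter than in the data, where 41.4% of genes were called. These shares check the scripts and do not give the share of line differences found in the data. A length was at hand for only 59.5 to 64.2% of IDs called or not called, so the check of gene length is void.

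IDs were named by rule: for the lines at 4 h, the 2 largest changes each way among called IDs with at least 1 CPM in the lower and 5 CPM in the higher group and no overlap; for the other tests, the 2 largest with at least 5 CPM in 1 line at 4 h and no library of at most 3 counts beside another of at least 5 CPM in any group at 0 or 4 h. The comparison, the rule and the lists were chosen with earlier results of these data known.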

Additional observations from a re-analysis of the deposited data

Results flagged for a closer look

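Some differences between the lines changed between times. The line difference at 4 h differed from that at 0 h for 64 genes and from the mean of the other 5 times for 242 genes, both by edgeR at an adjusted p under 0.05, and both counts depend strongly on single libraries. Among the IDs named for the first test, the change in line difference (log2) was 11.06 for Sme2.5_25219.1_g00001, 2.70 for Sme2.5_01843.1_g00010, -4.43 for Sme2.5_02228.1_g00009 and -4.40 for Sme2.5_02000.1_g00019. For the second test it was 11.39 for Sme2.5_25219.1_g00001, 6.98 for Sme2.5_04405.1_g00002, -5.20 for Sme2.5_00519.1_g00018 and -3.90 for Sme2.5_02000.1_g00019. The values of Sme2.5_25219.1_g00001 are fitted against a group without counts and measure no size, and the value of Sme2.5_04405.1_g00002 rests on 1 library.

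The part of the table without IDs was not used in the comparisons. Of 3301 such rows that passed the filter, 1690 (51.2%) were called between the lines at 4 h by the same edgeR test, with the resistant line higher for 540 and lower for 1150, beside 41.4% called over all tested IDs.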

How the results depend on the processing

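The number of genes that differed between the lines at 4 h was 9817 and ranged from 8002 to 9892 with 1 library left out, and the number beyond 2-fold was 4059 and ranged from 3407 to 4033. A fit of the 6 libraries at 4 h alone gave 7353 and 3097, from 20735 genes tested. DESeq2 called 10548. Limma called 6042 on log2(FPKM + 1), 5919 with a pseudocount of 0.1 and 5981 with FPKM scaled by TMM, each from the 13726 IDs that passed its filter, and 7533 of 24518 with no filter. The counts of changed differences moved more. Against 0 h (64), leaving out 1 library gave 23 to 555, the 12 libraries compared alone 6, DESeq2 532, and limma 135, 173 without a filter, 139 with scaled FPKM and 77 with a pseudocount of 0.1. Against the mean of the other times (242), leaving out 1 library gave 74 to 893, DESeq2 903, and limma 390, 379 without a filter, 341 with scaled FPKM and 268 with a pseudocount of 0.1. The cause was not tested. The IDs nearly without counts numbered 226 in the resistant and 86 in the susceptible line at a limit of 5 CPM, and 654 to 802 and 268 to 338 with 1 library left out.

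The replicate numbers gave no pairing by the labels. Deviations of same-numbered libraries at 4 h correlated at 0.162, 0.0239 and 0.236, and at 0 h at -0.0212, 0.0797 and 0.00379. At 4 h each resistant library correlated best with the susceptible library of its own number, a hint from the data and not the design, but susceptible replicate 2 did not. With a replicate block over all libraries the counts were 9855, 3998, 50 and 235. With a replicate block within time, 7798 differed, 2253 beyond 2-fold, 4 against 0 h and 47 against the other times. With a replicate block in the groups compared alone, the counts were 5928, 1722 and 3.

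Over 232 results of named IDs under an alternative, 194 kept their call, 34 lost it and 4 reversed. All 4 reversals were of Sme2.5_04405.1_g00002, whose value was -0.0516 in limma with and without a filter, -0.004779 with FPKM scaled by TMM, and from -0.54 (without resistant replicate 2) to 7.53 (without resistant replicate 1) with 1 library of the 4 h groups left out. Depth limits the IDs under 1 CPM, where the median standard error of the log2 difference was 1.20.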
